A study of Mus musculus with 84 samples.

Results

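Nuclear RNA of frontal cortex neurons was compared between mice taken 48 h and mice taken 24 h after an injection of DOI, in 4 mice at each time. The comparison used the 16 RNA libraries of these 8 mice, of 32 RNA libraries from 16 mice and 84 samples in all, and its samples were taken by their time labels. All mice were 12 weeks old, of the strain 129S6/SvEvTac, with no engineered allele named in the labels. The 24 h group and the 48 h group had both received DOI (2,5-dimethoxy-4-iodoamphetamine), so the drug was common to both sides and the labels separate them by the time after it. Mice given vehicle alone, and mice taken 7 days after DOI, are given as levels where they help to place a value, and entered no test. The labels give neither the dose nor the hour of the day. Nuclei of the frontal lobe of the cortex were sorted for NeuN, a protein of neuronal nuclei, and full-length cDNA was made from them by SMART-seq2, with 2 libraries per mouse. The RNA is therefore nuclear RNA of a mixed population of neurons, in which fewer cells of a type and less RNA per cell cannot be told apart.

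DOI is a psychedelic amphetamine that activates the serotonin 2A receptor, a Gq-coupled receptor abundant on pyramidal neurons of the frontal cortex. Gq signalling and the glutamate release that follows it switch on immediate early genes such as Fos, Egr1 and Arc within the first hours, and these transcripts normally decay quickly. Later programmes include neurotrophins, activins and synaptic proteins. A comparison of 2 days after the drug with 1 day asks which of these transcripts are still moving once the acute response has passed.

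Total counts per mouse were 6441396 to 8090559 at 24 h and 5834248 to 7344355 at 48 h. A level is given in CPM (a share of the total count, scaled by TMM factors), and 3 counts corresponded to 0.353 to 0.502 CPM in these mice. Neuronal transcripts dominated: the 6 pan-neuronal markers, which include Rbfox3 (the gene of NeuN) and Snap25, summed to 3893 to 6277 CPM over the 8 mice. Astrocyte markers summed to 103 to 248.99 CPM, microglial markers to 42.5 to 85.3 CPM, and endothelial and pericyte markers to 5.85 to 23.6 CPM, with the endothelial Cldn5 at 0 to 0.619 CPM. Each of these ranges overlapped between the times. In 24 h mouse 1, 22989 genes had at least 1 count, and in 48 h mouse 1, 21266 genes had one, against 24829 to 25223 in the other 6. These 2 mice stood apart in the principal components as well. The file headers carry mouse number 6 for the mice labelled 24 h mouse 1 and 48 h mouse 2, and the labels' numbers were used.

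The 2 times did not separate. Over the 16298 genes tested, the root mean square difference in log2 CPM between a 24 h mouse and a 48 h mouse had a median of 0.701 over 16 pairs. It had a median of 0.767 over the 6 pairs of 24 h mice and of 0.821 over the 6 pairs of 48 h mice. The median between times was thus no larger than the medians within a time. The first component of log2 CPM (34.1% of the variance) set 48 h mouse 1, at a score of 93.0, apart from 7 mice between -53.8 and 3.99. The second (24.6%) held 24 h mouse 1 at -64.7 and 48 h mouse 1 at -40.7, with 24 h mice 2 and 3 and 48 h mouse 4 together at 30.1 to 34.2. Without the 2 mice numbered 1, the medians were 0.618 within 24 h, 0.660 within 48 h and 0.653 between the times.

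**Figure D1:**
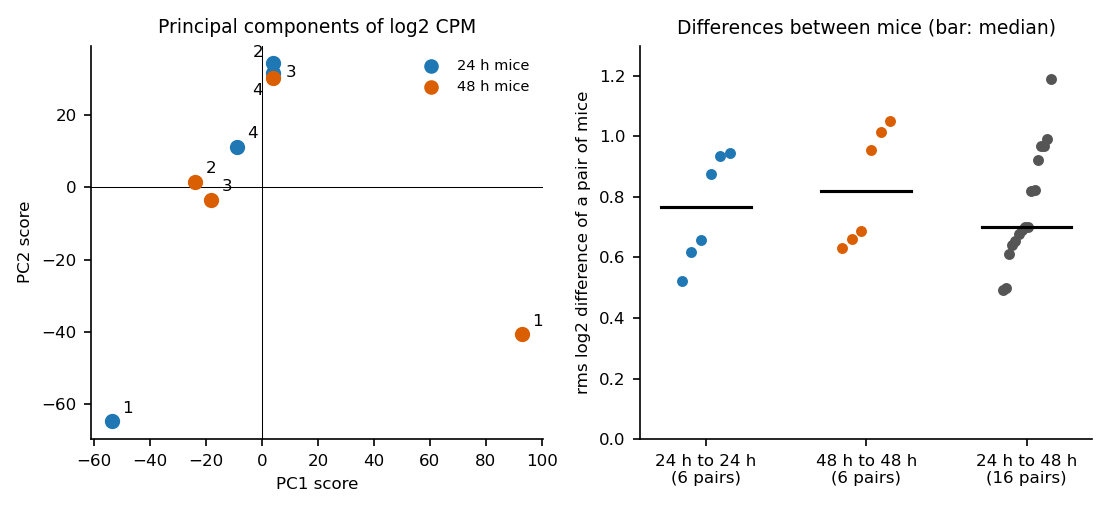
Left, scores of the 8 mice on the first and second principal components of log2 CPM, with each mouse's number. Right, root mean square log2 difference of each pair of mice over 16298 genes; the median is 0.767 within 24 h, 0.821 within 48 h and 0.701 between the times, and mouse 1 of each time lies apart from the rest on the left.

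No gene passed the test between the times. Of 16298 genes, 0 (0%) had an adjusted p below 0.05 in edgeR's quasi-likelihood test, and the smallest adjusted p was 1. At an unadjusted p below 0.05 there were 290 genes (1.78%), with 165 higher at 48 h (1.01%) and 125 lower (0.767%). If p were spread evenly, 814.9 genes would fall below 0.05. DESeq2 called 0 too and had 363 such genes, and limma voom with quality weights called 0, with 551. The 4 mice of one time all lay above the 4 of the other for 300 genes (1.84%), with 166 above at 48 h (1.02%) and 134 below (0.822%). The gene differences that follow did not pass the adjusted test and are given with their 95% intervals and unadjusted p from edgeR. All have an adjusted p of 1 in it. Without a filter on low counts edgeR called 13 of 33453 genes (0.0389%), among them Arc, with an adjusted p of 0.0282, and 4 mitochondrial messages. The counts of these genes were the same in both runs, yet p was smaller without the filter. The unadjusted edgeR p was 9.26e-06 for Arc and 1.15e-05 for Gm10800, against 0.0211 and 0.129 in the main test. The cause of this shift was not tested.

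The tests did limit how large most differences could be. For 10176 genes (62.4%) the 95% interval of the log2 fold change lay between -1 and 1, that is, within 2-fold either way. This precision followed the level: it held for 98.7% of genes above 64 CPM, for 90.7% of those at 16 to 64 CPM, for 38.4% at 4 to 16 CPM and for 0.421% at 1 to 4 CPM. The middle of the distribution was close to 0, with a median log2 fold change of -0.01, a 5th percentile of -0.55 and a 95th percentile of 0.58. For most genes at 1 to 4 CPM the interval reached beyond 2-fold. These shares describe the intervals and not what the adjusted test could detect. The estimate lay beyond 2-fold for 358 genes (2.2%), and none of them was called.

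**Figure D2:**
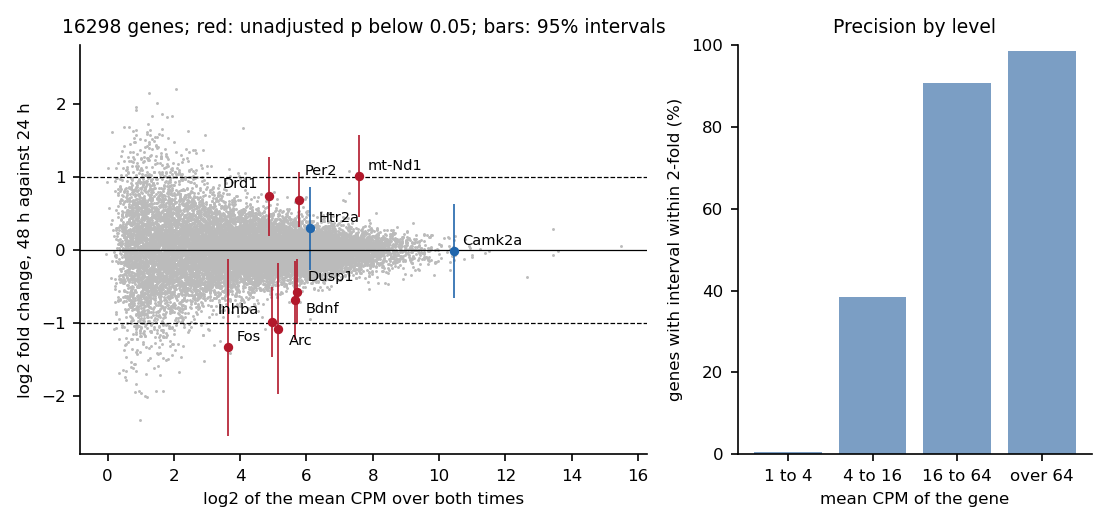
Left, log2 fold change of each of 16298 genes (48 h against 24 h) against the log2 of its mean CPM, with the 95% intervals of 10 genes described in the text, in red where the unadjusted p is below 0.05. Right, share of genes whose 95% interval lies within 2-fold, by mean CPM, which goes from 0.421% at 1 to 4 CPM to 98.7% above 64 CPM.

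Among transcripts that neuronal activity induces, Inhba, Fos, Arc, Bdnf and Dusp1 had lower levels at 48 h than at 24 h, each at an unadjusted p below 0.05 and an adjusted p of 1. Inhba (chr13:16011851-16031621, GRCm38, plus strand) encodes the inhibin beta A subunit, 2 copies of which form activin A, a secreted factor that neurons release after strong activity. It had the smallest p of all genes tested. Its level was 50.1, 37.6, 42.2 and 35.9 CPM in 24 h mice 1 to 4 and 15.1, 20.1, 22.6 and 25.5 CPM in 48 h mice 1 to 4. Every 48 h mouse lay below every 24 h mouse, and the vehicle mice, at 29.4 to 47.4 CPM, lay above every 48 h mouse. The log2 fold change was -0.99 (SE 0.22, 95% interval -1.47 to -0.52, unadjusted p 0.000513). Without the mice numbered 1 it was -0.76. The span of Inhba overlaps 2 genes on the other strand, and counting without strand cannot separate reads where exons overlap. At 7 days after the drug the range was 18.2 to 33.5 CPM.

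Fos, the AP-1 transcription factor used as the standard mark of activated neurons, was 3.095, 7.80, 33.7 and 27.2 CPM in 24 h mice 1 to 4. In 48 h mice 1 to 4 it was 5.43, 4.52, 8.18 and 10.3 CPM. The high values were those of 24 h mice 3 and 4, while 24 h mice 1 and 2 lay within the 48 h range or below it. The log2 fold change of -1.34 had a 95% interval from -2.55 to -0.13 (unadjusted p 0.0325), and vehicle mice alone ranged from 3.31 to 83.7 CPM. At 7 days Fos was 24.9 to 48.9 CPM, above every 48 h mouse. Arc, whose protein regulates AMPA receptor trafficking at synapses, was 31.1, 21.9, 88.6 and 51.8 CPM at 24 h against 15.1, 14.1, 20.4 and 41.8 CPM at 48 h. It was highest in 24 h mouse 3, the groups overlapped, and the log2 fold change was -1.08 (95% interval -1.97 to -0.19, unadjusted p 0.0211). Vehicle mice ranged more widely than either, from 28.1 to 291 CPM. Without 24 h mouse 3 the log2 fold change was -0.84 for Fos (unadjusted p 0.167) and -0.61 for Arc (unadjusted p 0.141).

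Bdnf, the neurotrophin that strengthens synapses through TrkB, was 35.6, 82.0, 67.9 and 63.5 CPM at 24 h and 28.4, 34.0, 44.6 and 47.1 CPM at 48 h. Only 24 h mouse 1 fell within the 48 h range. The log2 fold change was -0.69 (95% interval -1.24 to -0.15, unadjusted p 0.0161). Dusp1, a phosphatase that switches off MAP kinases and is itself an early response gene, was 63.8, 52.0, 73.1 and 63.5 CPM at 24 h and 58.1, 38.7, 32.3 and 40.7 CPM at 48 h. The overlap came from 48 h mouse 1 and 24 h mouse 2, and the log2 fold change was -0.57 (95% interval -1.02 to -0.12, unadjusted p 0.0161). Vehicle mice ranged from 79.6 to 246 CPM for Dusp1, above every mouse of both times. For Bdnf they ranged from 36.3 to 83.8 CPM. Genes on both strands overlap Dusp1, and 1 on the other strand overlaps Bdnf, so their counts are uncertain.

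Of the 20 immediate early transcription factors listed, 15 had counts enough to be tested. Fos alone of the 15 had an unadjusted p below 0.05, none was called, and the median log2 fold change was -0.15. Egr1, a zinc finger factor induced with Fos, was 49.2 to 74.8 CPM at 24 h and 44.0 to 75.5 CPM at 48 h, with a 95% interval from -0.58 to 0.31. Nr4a1, an orphan nuclear receptor of the same early wave, was 26.3 to 65.1 CPM at 24 h and 28.1 to 48.9 CPM at 48 h, with an interval from -0.94 to 0.25. Nr4a2 varied most between mice, from 6.30 to 66.4 CPM at 24 h and from 7.57 to 107 CPM at 48 h. The 19 activity-regulated effectors were all tested: Inhba, Arc and Bdnf were lower at an unadjusted p below 0.05 (0.767% of all genes were), 0 were higher, and the median was -0.12. Most of the others were bounded, with 15 of the 19 intervals within 2-fold. Homer1, a scaffold of group 1 glutamate receptors, was 110 to 144 CPM against 143 to 160 CPM (interval -0.13 to 0.54), and Nptx1, a secreted pentraxin that clusters AMPA receptors, was 260 to 347 CPM against 242 to 385 CPM (interval -0.42 to 0.41). Of the 8 MAP kinase phosphatase and Sprouty feedback genes tested, Dusp1 was the 1 with an unadjusted p below 0.05. None of the members of these 3 lists was called, as was 0% of all genes. Without the mice numbered 1 the medians were -0.37 for the early factors, -0.18 for the effectors and -0.22 for the feedback genes, and their unadjusted counts were 1 higher and 2 lower, 4 lower, and 1 lower. In that setting 2.91% of all genes were higher and 1.39% lower at an unadjusted p below 0.05.

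**Figure D3:**
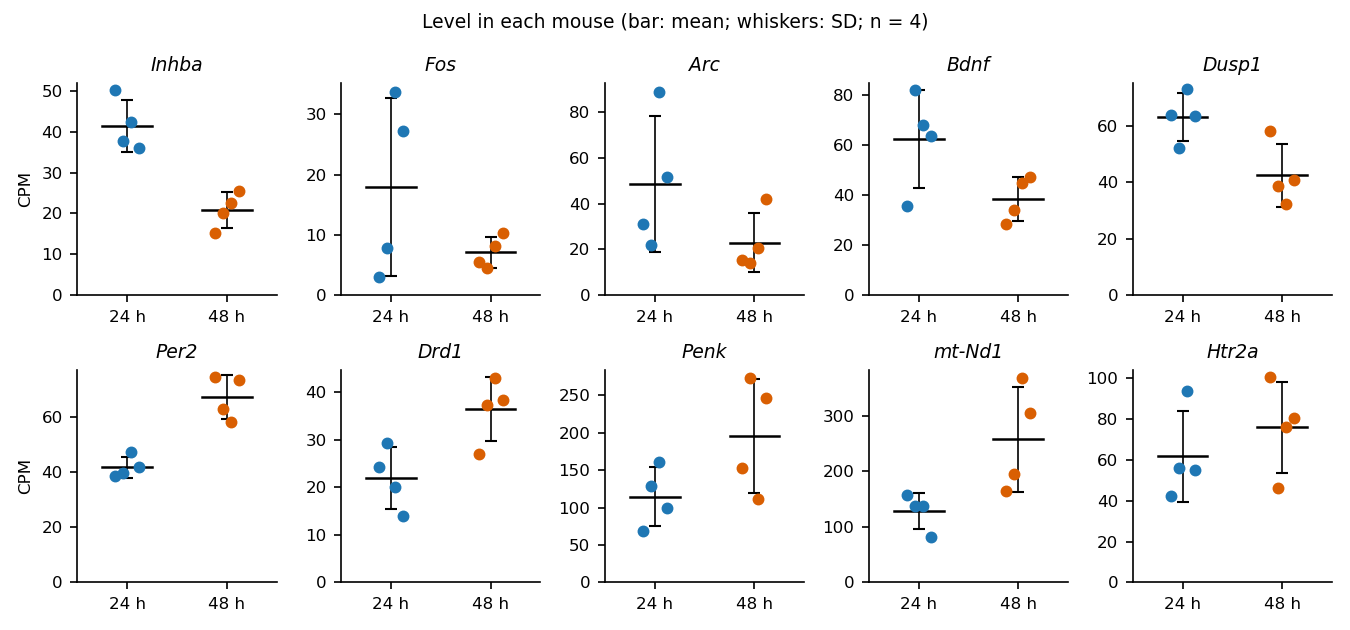
Level in CPM of 10 genes in each of the 4 mice at 24 h and at 48 h, with the mean as a bar and the SD as whiskers. Inhba and Per2 do not overlap between the times, Fos and Arc are highest in 24 h mice 3 and 4, and Htr2a overlaps throughout.

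For 2 of these early response genes the stretch just before the transcription start is shown, since the cAMP response element (CRE), read by CREB, is the classical route from neuronal activity to such genes. The 250 bases before the start are from RefSeq (GRCm38.p6), 5′ to 3′ on the gene's strand, with matches in capitals to the CRE half-site TGACG, the full CRE TGACGTCA or the E-box CACGTG, which is read by clock and other bHLH factors. Fos lies at chr12:85473640-85473889 on the plus strand and Dusp1 at chr17:26508473-26508722 on the minus strand.
Fos: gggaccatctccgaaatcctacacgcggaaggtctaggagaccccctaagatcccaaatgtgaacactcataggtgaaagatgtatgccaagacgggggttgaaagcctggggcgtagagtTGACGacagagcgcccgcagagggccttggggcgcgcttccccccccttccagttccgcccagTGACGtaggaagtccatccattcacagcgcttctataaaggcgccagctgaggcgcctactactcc
Dusp1: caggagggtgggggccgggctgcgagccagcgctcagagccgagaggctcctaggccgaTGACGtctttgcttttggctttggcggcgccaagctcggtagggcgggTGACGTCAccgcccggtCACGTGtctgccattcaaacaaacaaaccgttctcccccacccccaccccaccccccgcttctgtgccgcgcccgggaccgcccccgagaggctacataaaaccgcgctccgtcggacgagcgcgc
In Fos the half-site matches began 129 and 66 bases before the start. In Dusp1 a half-site match began 191 bases before the start, a full CRE 143 bases before it (which holds a half-site on each strand) and an E-box 126 bases before it. Over all 32851 promoter windows of 300 bases (250 before to 50 after the start, both strands searched), 20.8% held the half-site, 1.79% the full CRE and 7.15% the E-box. The full CRE contains the half-site. Of Inhba, Fos, Arc, Bdnf, Dusp1 and Per2, 4 had windows in the table: the single Inhba window held none of the 3 motifs and 1 of the 7 Bdnf windows held a half-site. A match here is a string of letters and no measurement of binding.

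Per2 (chr1:91415982-91459324, GRCm38, minus strand), a repressor arm of the circadian clock, had the smallest p among the genes higher at 48 h. It was 38.7, 39.6, 47.2 and 41.9 CPM in 24 h mice 1 to 4 and 74.4, 63.1, 58.2 and 73.4 CPM in 48 h mice 1 to 4. The mice of the 2 times did not overlap, and those of 1 time lay close together. The log2 fold change was 0.68 (SE 0.18, 95% interval 0.31 to 1.06, unadjusted p 0.00152). Vehicle mice ranged from 31.5 to 72.8 CPM, which took in all 4 mice at 24 h and 2 of those at 48 h, and mice at 7 days were at 88.3 to 123 CPM. Without the mice numbered 1 the log2 fold change was 0.60.

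The other clock genes were not tested against Per2. All 21 listed clock genes were tested between the times, and 15 estimates were positive, against 7983 of 16298 over all genes. Per2 was the 1 with an unadjusted p below 0.05 (1.01% of all genes were higher at that p). The median log2 fold change of the list was 0.09, and from 0.03 to 0.14 with 1 mouse left out. Of the 21 intervals, 19 lay within 2-fold, as did 62.4% over all genes. Per1, the paralogue that light and activity induce fastest, was 28.9 to 46.9 CPM at 24 h and 23.2 to 48.6 CPM at 48 h (interval -0.62 to 0.49). Dbp, a clock output factor driven directly by CLOCK and BMAL1, was 15.1 to 17.6 CPM at 24 h and 20.7, 22.8, 9.07 and 22.5 CPM in 48 h mice 1 to 4, where mouse 3 was low (interval -0.47 to 0.77). Arntl, the gene of BMAL1, was 63.2 to 94.1 CPM against 46.7 to 82.4 CPM (interval -0.64 to 0.24), and the repressor Nr1d1 was 19.5 to 67.1 CPM against 34.8 to 78.4 CPM (interval -0.54 to 0.86).

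The 10 protein-coding genes with the smallest p in each direction whose mice did not overlap have varied roles. Higher at 48 h was Pde5a, the phosphodiesterase that breaks down cGMP, at 8.05, 7.80, 10.6 and 10.6 CPM against 20.4, 18.9, 16.7 and 14.9 CPM. Its log2 fold change was 0.93 (95% interval 0.38 to 1.49, unadjusted p 0.00294), and all 48 h mice lay above the vehicle range of 9.96 to 12.3 CPM. The span of Pde5a overlaps 2 genes on the other strand, and the counting used no strand, so strand cannot assign reads where exons overlap. Whether their exons overlap was not examined. Adcy5, the main adenylyl cyclase of striatal neurons, was 34.7, 52.8, 48.8 and 52.2 CPM against 80.4, 94.9, 52.8 and 78.0 CPM, with a log2 fold change of 0.70 (95% interval 0.24 to 1.15, unadjusted p 0.00532). In 48 h mouse 3 it barely exceeded the highest 24 h mouse.

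The 10 on the higher side, Per2 included, had log2 fold changes from 0.47 to 1.37 and unadjusted p from 0.00152 to 0.0122. Lyst, a regulator of lysosome size, was the tightest, at 87.9 to 97.8 CPM against 110 to 145 CPM (interval 0.13 to 0.80). Specc1, a cytoskeletal protein, was 50.5 to 58.4 CPM against 67.9 to 79.9 CPM (interval 0.14 to 0.83). Slc24a3, a sodium, calcium and potassium exchanger of the plasma membrane, was 27.1 to 44.3 CPM against 51.8 to 81.9 CPM (interval 0.18 to 1.12). The others were Lpp, a focal adhesion protein, Lhfpl3, a tetraspan membrane protein, and the less studied 6720489N17Rik and Gm7694. Other genes overlap Adcy5, Lpp, Specc1, Slc24a3, Lhfpl3 and Gm7694 on 1 or both strands, and these counts are uncertain too. In 48 h mouse 2 Lhfpl3 was 33.0 CPM, against 16.01 to 17.0 CPM in the other 48 h mice, and in 48 h mouse 1 6720489N17Rik was 19.0 CPM against 6.99 to 8.54 CPM.

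On the lower side, after Inhba, stood Rnf39, a RING finger protein, at 21.05, 10.95, 12.85 and 14.35 CPM against 8.86, 4.69, 6.40 and 4.94 CPM. Its log2 fold change was -1.25 (95% interval -1.95 to -0.54, unadjusted p 0.00195). Chrna7, the subunit of the alpha7 nicotinic acetylcholine receptor, a calcium-permeable channel, was 7.74, 15.6, 10.6 and 10.5 CPM against 4.57, 4.18, 5.21 and 6.80 CPM. Its log2 fold change was -1.09 (95% interval -1.82 to -0.36, unadjusted p 0.00610), and vehicle mice lay higher than both times, at 20.8 to 39.9 CPM. Pqbp1, a splicing-associated protein whose mutations cause intellectual disability, was 60.6 to 90.5 CPM against 47.9 to 55.7 CPM (interval -0.90 to -0.12). Ccdc115, an assembly factor of the vacuolar proton pump, was 20.6 to 29.1 CPM against 8.29 to 20.5 CPM, so that 48 h mouse 4 all but reached the 24 h range. Mblac1, Card19, Mplkip, Mob3a and Tnnc1 completed this side (other genes overlap Chrna7, Ccdc115, Mplkip and Tnnc1), with log2 fold changes from -1.16 to -0.84. Mplkip was highest in 24 h mouse 1, at 29.1 CPM against 15.7 to 18.7 CPM in the other 24 h mice. Over 22 settings its log2 fold change ran from -1.16 to -0.52 (unadjusted p up to 0.0799). Outside the protein-coding genes, the rule named mt-Nd1, Gm44848 and Gm38085 higher at 48 h and B230216N24Rik, Gm2694 and AC133451.2 lower, with unadjusted p from 0.00176 to 0.0264. Except for mt-Nd1 these are unannotated or noncoding features with overlapping neighbours, and their counts are uncertain. Over 22 settings Gm38085 had log2 fold changes from 0.64 to 1.4 (unadjusted p up to 0.0657). Gm2694 had -1.06 to -0.52 (unadjusted p up to 0.137).

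The mitochondrial messenger RNAs had the highest median of any list. These transcripts are made inside mitochondria from the organelle's own genome, so in sorted nuclei they are outside the compartment sorted for. Of the 13, 7 had counts enough to be tested: all 7 estimates were positive, with a median log2 fold change of 0.99 against -0.01 over all genes, and 4 (mt-Nd1, mt-Nd5, mt-Co1 and mt-Cytb) had an unadjusted p below 0.05, as had 1.01% of all genes in that direction. Without a filter on low counts edgeR called the same 4, with adjusted p of 0.00515, 0.0292, 0.00205 and 0.00156 in that order. In that run the unadjusted edgeR p of mt-Nd1 was 1.08e-06, against 0.00176 in the main test from the same counts. Summed over the 13, the mitochondrial messages were 573, 546, 539 and 263 CPM in 24 h mice 1 to 4 and 463, 763, 1256 and 1307 CPM in 48 h mice 1 to 4. The high values were those of 48 h mice 3 and 4, the low one that of 24 h mouse 4, and 48 h mouse 1 lay inside the 24 h range. Vehicle mice spanned 138 to 594 CPM. mt-Nd1, a subunit of respiratory complex I, was 156, 138, 137 and 81.9 CPM against 164, 194, 367 and 304 CPM, with a log2 fold change of 1.01 (95% interval 0.44 to 1.57, unadjusted p 0.00176). The 6 untested members, among them mt-Co2 and mt-Co3, reached at most 32 counts in any mouse. Nuclear copies of mitochondrial sequence exist, and reads that align to several places are not counted at the default setting, so levels of these genes are uncertain. Without the mice numbered 1 the median was 1.28, and without 48 h mouse 4 it was 0.695, with 7 and 3 members higher at an unadjusted p below 0.05, where 2.91% and 1.57% of all genes were. The part of cytoplasmic carry-over in this difference was not tested. In the same mice the cytosolic ribosomal protein messages, also cytoplasmic when mature, summed to 2916 to 3789 CPM at 24 h and 2717 to 3494 CPM at 48 h, with a median log2 fold change of -0.07 over 82 genes.

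Markers of striatal projection neurons, cells of the striatum, which lies beneath the cortex, had the next highest median. All 8 tested markers had positive estimates, with a median of 0.71, and 2 of the 8 were higher at an unadjusted p below 0.05, against 1.01% of all genes. The list summed to 310, 370, 362 and 311 CPM in 24 h mice 1 to 4 and 386, 741, 394 and 582 CPM in 48 h mice 1 to 4, and vehicle mice lay at 383 to 469 CPM. The times did not overlap, and 48 h mice 1 and 3 lay within the vehicle range while 48 h mice 2 and 4 lay above it. Drd1, the dopamine D1 receptor, was 24.3, 29.2, 20.0 and 14.0 CPM against 27, 37.2, 43.0 and 38.3 CPM, with a log2 fold change of 0.74 (95% interval 0.19 to 1.28, unadjusted p 0.0112). Penk, the precursor of enkephalin peptides, was 69.0, 129, 161 and 99.3 CPM against 153, 273, 111 and 246 CPM, with a log2 fold change of 0.77 (95% interval 0.14 to 1.40, unadjusted p 0.0193), and 48 h mouse 3 lay within the 24 h range. Without 48 h mouse 2 the median of the list was 0.56, and without 48 h mouse 4 it was 0.57, each with 1 member higher at an unadjusted p below 0.05, where 1.3% and 1.57% of all genes were. Without the mice numbered 1 it was 0.74, with 8 of 9 members higher at an unadjusted p below 0.05, where 2.91% of all genes were. The untested markers were low: Drd2 was at most 1.5 CPM at 24 h and 6.69 CPM at 48 h (mouse 2), and Adora2a at most 0.588 and 2.18 CPM (mouse 2). Rgs9, a striatal regulator of G-protein signalling, was 40.7 CPM in 48 h mouse 2 and 25.2 CPM in 48 h mouse 4, against 8.67 to 20.2 CPM in the 6 others. The part of striatal tissue in any gene named above, Adcy5 included, was not tested.

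**Figure D4:**
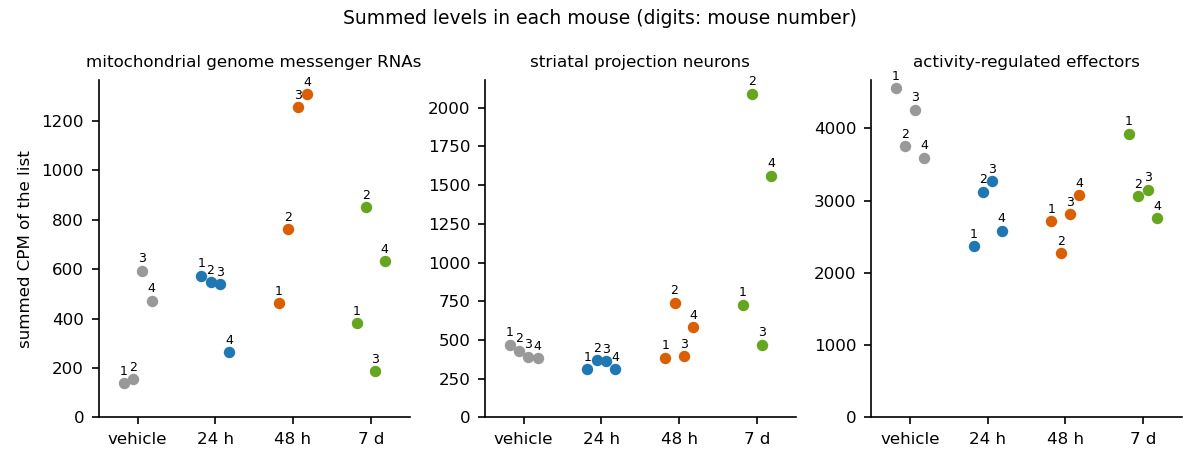
Summed CPM of the mitochondrial messenger RNAs, the striatal markers and the activity-regulated effectors in each mouse, with vehicle and 7 day mice as levels only. At 48 h the mitochondrial sum is highest in mice 3 and 4 (1256 and 1307 CPM) and the striatal sum in mice 2 and 4 (741 and 582 CPM), while the effectors overlap.

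In the other cell type lists 0 members had an unadjusted p below 0.05, near the 1.78% of all genes. Glutamatergic markers summed to 298 to 362 CPM at 24 h and 279 to 345 CPM at 48 h, with a median log2 fold change of -0.01. Neurod6, a factor of cortical pyramidal neurons, had the smallest p among them (0.0798): it was 53.2 to 63.5 CPM at 24 h and 30.8 to 51.6 CPM at 48 h, so the mice did not overlap, and the interval ran from -0.80 to 0.05. Slc17a7, the vesicular glutamate transporter of cortical neurons, was 58.7 to 109 CPM against 62.0 to 93.9 CPM (interval -0.44 to 0.46). Interneuron markers summed to 2396 to 3414 CPM against 2456 to 3558 CPM, and Gad1, which makes GABA, was 288 to 450 CPM against 272 to 543 CPM (interval -0.25 to 0.69). Slc32a1, the vesicular GABA transporter, did not overlap either, at 6.82 to 10.05 CPM against 10.38 to 12.01 CPM (interval -0.25 to 0.95). The median of the interneuron list was 0.17. Upper-layer markers had a median of -0.11 and deep-layer markers of 0.05. The glial and vascular lists were poorly bounded: the median was 0.27 for oligodendrocyte precursors (0 of 3 intervals within 2-fold) and -0.24 for microglia (2 of 4), and Rgs5, the 1 vascular marker tested, was at -0.33. Aqp4, the water channel of astrocyte endfeet, was 6.75 to 19.0 CPM against 1.84 to 23.9 CPM, with an interval from -1.40 to 0.90.

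The receptor the drug acts on, and the synaptic machinery around it, had differences within the spread between mice. Htr2a (chr14:74640840-74709494, GRCm38), the serotonin 2A receptor gene, was 42.1, 56.1, 93.6 and 54.9 CPM at 24 h and 101, 46.2, 76.0 and 80.2 CPM at 48 h. The groups overlapped throughout, and the log2 fold change of 0.30 had a 95% interval from -0.27 to 0.87 (unadjusted p 0.283). A 2-fold difference in either direction lies outside that interval. Vehicle mice were higher, at 121 to 142 CPM. They stood apart from both times in other genes too, as in Camk2a, at 151 to 222 CPM in vehicle mice against 632 to 2133 CPM. Their total counts were also higher, at 9151680 to 11517452. The cause of these differences was not tested. Htr2c, the related 2C receptor, was 20.1 to 24.0 CPM at 24 h and 12.9, 55.4, 31.4 and 24.9 CPM at 48 h, with mouse 2 high. Of the 12 serotonin receptor genes tested, 0 had an unadjusted p below 0.05, against 1.78% of all genes, and 5 of 12 intervals lay within 2-fold, against 62.4%. The Gq, phospholipase C and arrestin genes downstream were bounded more tightly, with 11 of 12 intervals within 2-fold and log2 fold changes from -0.22 to 0.18.

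Of 17 ionotropic glutamate receptor genes tested, 16 intervals lay within 2-fold and 0 had an unadjusted p below 0.05, against 62.4% and 1.78% of all genes. Such a share within 2-fold is near that of all genes above 16 CPM. Grin2b, the NMDA receptor subunit that carries slow calcium currents, had 907 to 1105 CPM at 24 h and 942 to 1056 CPM at 48 h, with an interval from -0.33 to 0.36. Grik2, a kainate receptor subunit, had the smallest p of the list (0.0697), at 85.3 to 104 CPM against 98.5 to 126 CPM. The metabotropic receptor Grm2, which restrains glutamate release and is studied together with Htr2a, was 21.5 to 53.2 CPM against 24.3 to 55.4 CPM (interval -0.84 to 0.50). Of the 12 GABA-A receptor subunits, all 12 intervals lay within 2-fold.

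Scaffold, adhesion and release genes were alike in this. Of 22 postsynaptic density genes tested, 21 intervals lay within 2-fold. Dlg4, the gene of PSD-95, was 41.6 to 63.8 CPM against 53.3 to 81.3 CPM (interval -0.28 to 0.58). Camk2a, the kinase of long-term potentiation, had a log2 fold change of -0.02, although its mice ranged from 632 to 2133 CPM at 24 h and from 1167 to 1882 CPM at 48 h. Synaptic adhesion genes had positive estimates for 16 of 19 members, against 7983 of 16298 over all genes. Their median was 0.11, with 18 of 19 intervals within 2-fold. Members of a list share the same 8 mice, so their signs are not independent. Of 18 synaptic vesicle genes, 17 intervals lay within 2-fold, and the log2 fold changes ran from -0.13 to 0.24. In these 3 lists 0 members had an unadjusted p below 0.05, against 1.78% of all genes.

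Of the remaining lists, axon guidance genes had 1 of 32 members at an unadjusted p below 0.05, against 1.78% of all genes. It was Plxna4, a semaphorin receptor, at 100 to 143 CPM against 128 to 220 CPM (log2 fold change 0.43, interval 0.02 to 0.85, unadjusted p 0.0409), and highest in 48 h mouse 1. Over 22 settings Plxna4 had log2 fold changes from 0.18, without the mice numbered 1, to 0.55, with an unadjusted p below 0.05 in 13. Heat shock and chaperone genes had negative estimates for 14 of 17 members, against 8315 of 16298 over all genes. Their median was -0.17, with 15 of 17 intervals within 2-fold. Dnaja1, a co-chaperone of Hsp70, had the smallest p of these (0.112), at 129 to 215 CPM against 132 to 166 CPM. Histone acetylation and H3K27 regulators had 23 of 26 intervals within 2-fold and a median of 0.01. Fkbp5, the glucocorticoid-induced co-chaperone, was 5.98 to 10.6 CPM against 8.94 to 16.7 CPM, with an interval from -0.19 to 1.21.

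**Figure D5:**
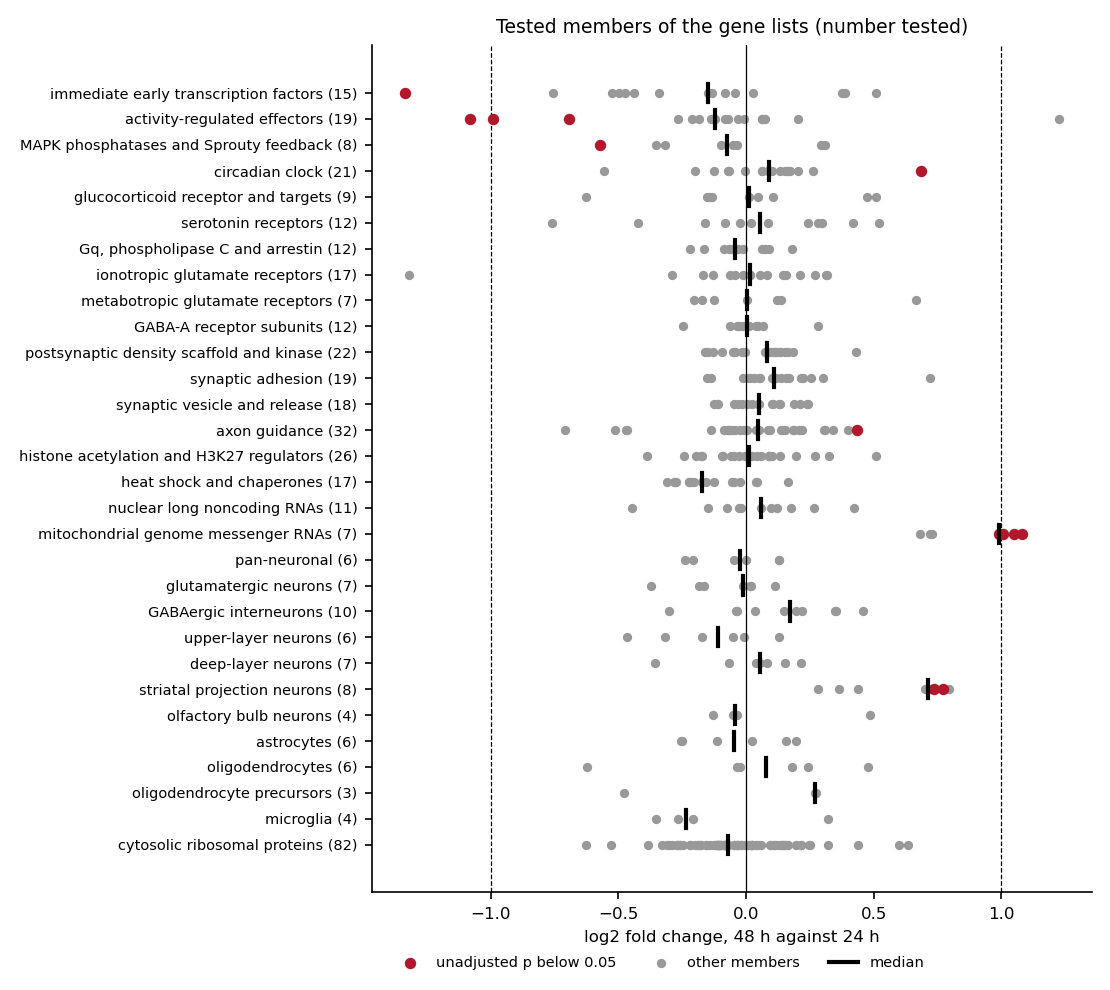
Log2 fold change (48 h against 24 h) of each tested member of the gene lists with 3 or more members tested, with the median of each list as a bar and members at an unadjusted p below 0.05 in red. The medians of the mitochondrial messages (0.99) and the striatal markers (0.71) lie away from 0, and the receptor and synapse lists lie around it.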

How the data were processed

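RNA-seq counts of NeuN-sorted nuclei were used. The authors deposited raw read counts by gene, made with featureCounts 2.0.0 over exons of Ensembl genes (GRCm38), per the file headers, without options for strand, read pairs or multi-mapping reads. The submitters' processing notes name Trim Galore 0.6.5 and Bowtie2 2.4.1; the aligner used for RNA is not given in the sources used here. Both libraries of each mouse were added together and mice served as replicates. The paired libraries were not copies (chi-square over degrees of freedom 1.60 to 2.89). Genes were kept with filterByExpr (16298), scaled with TMM factors over 16 mice and tested on the 8 mice with edgeR 4.0.16 (glmQLFit, glmQLFTest; R 4.3.3), with Benjamini-Hochberg adjustment at 0.05. Intervals came from the fold change and F statistic. DESeq2 1.42.0 and limma 3.58.1 were alternatives. The fit was checked on simulated data. Gene types and promoters were matched by symbol to RefSeq; 99.5% of IDs had a symbol. Genes named were the 10 protein-coding genes per direction with the smallest p, no overlap and a mean log2 CPM of at least 2, 3 other features per direction, the smallest p of each list, and a set of receptor, early response, clock and marker genes; others were chosen after their values were seen. The comparison, rule and lists were chosen with earlier results of these data known. The labels' mouse numbers did not pair the samples. H3K27ac samples were not analysed here. The labels name no molecular identifiers, and floors describe counting error alone.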

Additional observations from a re-analysis of the deposited data

Results flagged for a closer look

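The levels of 94 named genes, each list sum, the total count, the genes detected and 2 component scores were examined in each group of 4 mice for a mouse set apart from its 3 group mates by more than Dixon's 95% critical value. Of 258 groups, 23 (8.91%) had such a mouse, where chance gives about 1 in 20. Genes named for having most of their counts in 1 mouse are among them. Genes detected were low in 24 h mouse 1 (22989, against 24829 to 25126) and in 48 h mouse 1 (21266, against 24894 to 25223). Among levels at 48 h, 6720489N17Rik (18.999 CPM) and Adarb2, an interneuron marker (135.71 CPM, against 40.3 to 48.0), were high in mouse 1, Lhfpl3 (32.968 CPM) was high in mouse 2, and Dbp (9.0736 CPM, against 20.7 to 22.8) was low in mouse 3. In 48 h mouse 4, Specc1 (67.898 CPM, against 78.2 to 79.9) was low and Camk2a (1881.8 CPM, against 1167 to 1286) was high. Among levels at 24 h, Grm4 (1.0834 CPM, against 4.71 to 5.41) was low in mouse 1, Grik2 (103.78 CPM, against 85.3 to 87.3) was high in mouse 2, and Dbp (15.059 CPM, against 17.4 to 17.6) was low in mouse 4. The summed GABA-A receptor subunits were low in 48 h mouse 2 (1979.3 CPM, against 2772 to 2907), and the summed mitochondrial messages were low in 24 h mouse 4 (262.83 CPM, against 539 to 573). Homer1 was low in 24 h mouse 2 (110.4 CPM, against 139.9 to 144). Gm10800 (203.4 CPM, against 48.97 to 56.35) and Lpar4 (8.357 CPM, against 0 to 0.2544) were high in 24 h mouse 1. At 48 h, Ggt5 (13.29 CPM) was high in mouse 1, Gm4756 (9.204 CPM) in mouse 2, mt-Co2 (2.975 CPM) in mouse 3 and Gh (60.03 CPM) in mouse 4. At 24 h, Gh (0.1548 CPM in mouse 1) and Gm4756 (0.1272 CPM in mouse 3) had 1 count in 1 mouse, under the floor of 3 counts, and Adora2a was 0.5882 CPM in mouse 4, where the other 3 mice were at 0.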

How the results depend on the processing

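The count of 0 called genes held in every alternative run but one, and at adjusted thresholds of 0.1 and 0.01. Without a filter on low counts, 33453 genes were tested and 13 were called, with 1368 at an unadjusted p below 0.05 and 489 without overlap. The 290 genes at an unadjusted p below 0.05 became 551 with limma voom and quality weights and 711 without the 2 mice numbered 1. Leaving out 1 mouse at a time gave 256 to 607, with 607 without 24 h mouse 1 and 479 without 48 h mouse 4; called genes stayed at 0 to 0, and genes with an interval within 2-fold were 8985 to 10123. The cause of these shifts was not tested. The mouse number as a replicate block gave 0 called genes and 136 at an unadjusted p below 0.05. The labels' numbers did not pair the mice: deviations of same-numbered mice correlated at -0.201 to -0.095, and 0 of 4 mice correlated best with their own number. Pairing by the numbers in the file headers was not examined. Over all alternatives Inhba had log2 fold changes from -1.11 to -0.76 (unadjusted p 1.75e-05 to 0.00326) and Per2 from 0.60 to 0.75 (0.000174 to 0.00741), while Fos ranged from -1.68 to -0.84 (p up to 0.167, below 0.05 in 13 of 22) and Arc from -1.55 to -0.61 (p up to 0.141, below 0.05 in 17 of 22). Bdnf ranged from -0.88 to -0.53 (p up to 0.069) and Dusp1 from -0.76 to -0.46 (p up to 0.152), each below 0.05 in 19 of 22. Among named genes, 963 recomputed values outside the single-mouse omissions gave 14 that moved beyond the error of the main value and 14 changes of sign, and 552 values with 1 mouse left out gave 11 and 22. Leaving out 1 mouse gave median log2 fold changes of 0.695 to 1.16 for the mitochondrial messages, with 3 to 7 members at an unadjusted p below 0.05, and of 0.56 to 0.85 for the striatal markers, with 1 to 5. Without the 2 mice numbered 1 these were 7 and 8 members. The activity-regulated effectors ranged from -0.17 to 0.02, the positive value being that without 24 h mouse 2. The split of higher against lower genes was 165 to 125 in the main test, 133 to 166 with detected genes as a covariate and 177 to 199 with 16 libraries and duplicateCorrelation. The medians by list and the counts without overlap were recomputed after seeing the data.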

Other observations

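The 13 genes called without a filter on low counts fell into 2 kinds. Of these, 8 had passed the filter, where none was called: mt-Rnr2, mt-Nd1, mt-Co1, mt-Nd5, mt-Cytb, Eml2, Arc and Gm10800. The mitochondrial large ribosomal RNA mt-Rnr2 was 358, 381.5, 310 and 302 CPM at 24 h and 556, 261, 1362 and 928 CPM at 48 h, so 48 h mouse 2 lay below every 24 h mouse. Eml2, a microtubule-associated protein, was 5.40 to 10.7 CPM at 24 h and 62.1, 4.52, 30.6 and 5.60 CPM at 48 h, with mice 1 and 3 high. The other 5 had most of their counts in 1 mouse. Gh, the growth hormone gene of the pituitary, had 450 counts in 48 h mouse 4, which is 99.8% of its counts in the 8 mice, and 1 count elsewhere. Lpar4, a lysophosphatidic acid receptor, had 54 counts in 24 h mouse 1 (94.7%), Ggt5, a gamma-glutamyl transferase, 93 in 48 h mouse 1 (92.1%), and Gm4756 55 in 48 h mouse 2 (91.7%). Ly6a, a surface antigen of endothelial cells, had 108 in 24 h mouse 4 (61%) and 41 in 24 h mouse 1. In the same 2 mice the endothelial and pericyte markers summed to 23.6 and 23.2 CPM, against 5.85 to 9.57 CPM in the other 6.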
